A study of Mus musculus with 3 samples.

Results

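This account covers the lysosome of cultured mouse myotubes: 43 listed genes for its acid hydrolases, its membrane proteins, the proton pump that acidifies it and the 3 transcription factors tied to its genes. The genes were chosen by name, for their function, but with earlier results of these data known. Of the 43, 42 had a row of their own among the 24401 loci of the deposited gene table, and 40 had a mean FPKM (fragments per kilobase of transcript, scaled to the mapped fragments of the library) of 1 or more over the 3 libraries, as did 11211 of the 23297 genes with a single symbol. Glb1, lysosomal beta-galactosidase, shared its locus with Tmppe, so its level was not used and only its promoter was read. Ctsk, the collagen-degrading cathepsin K, was listed at 0.0828, 0.139 and 0 FPKM in the control, conditioned media and resveratrol libraries. Ctss, cathepsin S of antigen-presenting cells, lay just outside the limit with a mean of 0.962 FPKM, and the lowest member inside it was Mitf with a mean of 3.89 FPKM.

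C2C12 is a mouse myoblast line that fuses into myotubes when serum is withdrawn, and S2-013 is a human pancreatic cancer line. All cells were grown in medium with 10% fetal bovine serum and were differentiated for 72 h in 2% horse serum with 1 µg/ml insulin. They then received, for 24 h, plain DMEM (control), medium that S2-013 cells had conditioned for 24 h (conditioned media), or that conditioned medium together with the plant polyphenol resveratrol at 50 µM. Each group was 1 library, so no value below has a replicate error and no difference was tested. The labels name the cells myoblasts, although the protocol differentiates them. No source used here states the serum in either medium or what resveratrol was dissolved in, so a difference from plain DMEM cannot be told apart from a difference in serum or spent medium. No library with resveratrol alone was analysed here.

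Lysosomes break down proteins, glycans, lipids and nucleic acids with hydrolases that work at acid pH. The vacuolar proton pump (V-ATPase) makes that acidity: its V1 sector splits ATP in the cytosol, and its V0 sector carries protons across the membrane. TFEB, TFE3 and MITF bind E-boxes with the core CACGTG in promoters of lysosomal genes and move to the nucleus when nutrient signalling at the lysosome is low, a control that acts on the proteins and is not read from their mRNA. In muscle, the lysosome receives autophagosomes and clears organelles and glycogen, and atrophying muscle is known for raised cathepsin levels.

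The files hold FPKM without read counts, so the depth behind each value is unknown. Between 11051 and 11348 genes reached 1 FPKM in a library. The sum of FPKM over all loci was 3384770 in the control library, 2953954 after conditioned media and 2956883 with resveratrol added, and the 10 highest loci held 66.4%, 67.3% and 65.3% of these sums. Ratios are log2 of (FPKM + 1) in one library over (FPKM + 1) in another, which understates differences of genes at low levels. Rescaling FPKM to TPM (each library set to the same sum) shifted the median ratio of all genes from -0.01 to 0.14 for conditioned media over control and from 0.00 to 0.15 for resveratrol over control, while resveratrol over conditioned media stayed at 0.03 and 0.02. A member's sign that turns under TPM is named in the text below. In bulk RNA, fewer cells of a type and less RNA per cell cannot be told apart.

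The lysosomal genes as a whole stood highest in the library with resveratrol. Their summed level over the 42 rows was 4847 FPKM in the control, 5037 after conditioned media and 5866 with resveratrol added. No member was at least 1.5-fold apart between conditioned media and control, where 6.93% of all genes were at least 1.5-fold higher and 4.58% at least 1.5-fold lower. With resveratrol, 4 of the 40 members were at least 1.5-fold above conditioned media (7.47% of all genes) and 1 was at least 1.5-fold below (12% of all genes). The 4 were Neu1 (sialidase), Ctsf (cathepsin F), Npc2 (cholesterol carrier) and Atp6v1e1 (pump stalk), and the 1 was Tfeb. Against control, 8 members were at least 1.5-fold higher with resveratrol (11.1% of all genes) and 1, Gusb, was at least 1.5-fold lower (13.5% of all genes). As TPM, the 8 became 15 of 40 (37.5%), against 13.7% of all genes, and the 1 became 0. Members past 1.5-fold in the lower direction made up a smaller share than among all genes in each comparison. In the higher direction the share was smaller in conditioned media over control and larger in resveratrol over control, at 20% against 11.1%. For resveratrol over conditioned media it was 10% against 7.47%, a small gap that rested on 4 members, or 3 with a pseudocount of 5.

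Ratios above 0 made up a larger share of the members than of all genes in each comparison. In conditioned media over control, 25 of 40 members (62.5%) had a ratio above 0, against 48.6% of all genes, with a median of 0.12 over a range of -0.27 to 0.49. As TPM these shares were 37 of 40 (92.5%) and 70.2%, and without the 8 members whose position another locus shares the FPKM median was 0.07. With resveratrol over conditioned media, 29 of 40 (72.5%) lay above 0, against 53% of all genes, and the median was 0.24, against 0.03. With resveratrol over control, 32 of 40 (80%) lay above 0, against 50.3% of all genes, and the median was 0.32, against 0.00. As TPM the last pair of shares was 87.5% and 64.7%. The 3 comparisons use the same 3 libraries and are not separate evidence.

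The authors' deposited table gives a yes or no for each gene pair, which with 1 library a group compares these libraries and not the conditions. In conditioned media over control, the authors' deposited table called 20 of 40 members higher (26.1% of the genes it tested) and 8 lower (30.2%). In resveratrol over conditioned media, the authors' deposited table called 25 members higher (34.6%) and 9 lower (29.7%). In resveratrol over control, 31 were called higher (34.6%) and 5 lower (34.3%) in the authors' deposited table. Some of these calls rest on small ratios, such as a log2 value of 0.07 for the smallest called member in conditioned media over control.

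**Figure D1:**
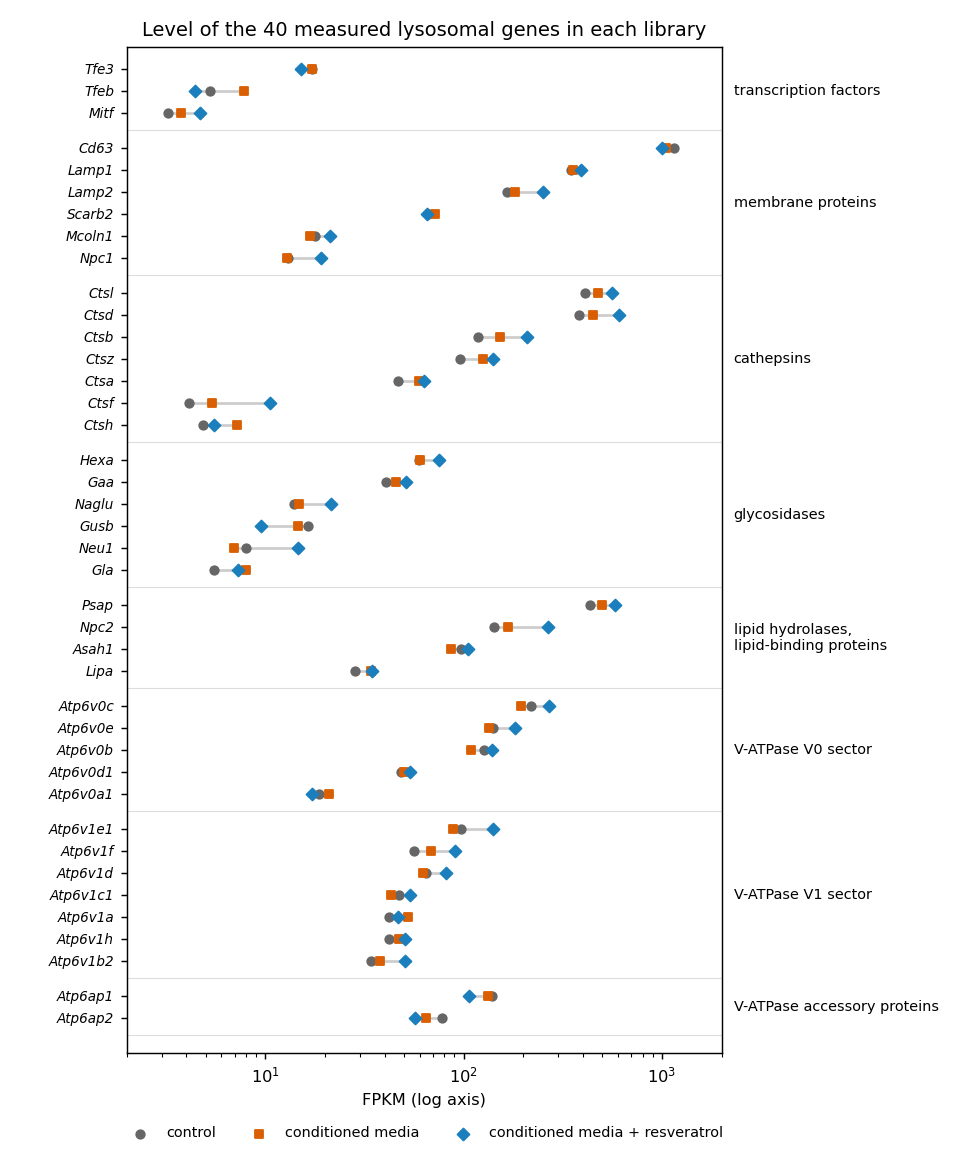
FPKM (log axis) of the 40 lysosomal genes with a mean of 1 FPKM or more in the control, conditioned media and resveratrol libraries, 1 point per library, grouped by role. Levels run from 3.22 FPKM for Mitf to 1151 FPKM for Cd63, both in the control library, and the resveratrol point is the highest of the 3 for Ctsb, Ctsd, Npc2 and Lamp2.

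The CACGTG core, which the TFEB family can bind, was counted in promoters as these members share a proposed regulator. Since the core is known from promoters of lysosomal genes, a raised share among the members was likely in advance. The share is therefore a description and not a test of that regulator. Promoters were the bases from 250 before to 50 after the start site in RefSeq's table for GRCm38.p6, which held 36 of the 43 members. CACGTG, which reads the same on both strands, lay in 14 of the 36 member promoters (38.9%), against 2187 of 27025 genes of the table (8.09%) and 12% of the measured genes matched to it. The longer TCACGTGA lay in 7 of the 36 (19.4%), against 1.12% and 2.27%, and the 10-base palindrome that adds a G before and a C after it lay in none, against 0.37% and 0.854%. Every TCACGTGA also counts as a CACGTG. The 9 windows that follow show 1 box each from a membrane protein, a channel, hydrolases and pump subunits, 5′ to 3′ on the gene's strand, with the core in capitals.
Lamp1: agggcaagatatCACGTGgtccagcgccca
Mcoln1: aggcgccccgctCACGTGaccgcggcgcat
Ctsd: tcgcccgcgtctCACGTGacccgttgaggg
Ctsf: caccccgtggtcCACGTGcctcgcgtaaat
Gaa: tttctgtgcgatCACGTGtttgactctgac
Gla: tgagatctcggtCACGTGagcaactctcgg
Atp6v0b: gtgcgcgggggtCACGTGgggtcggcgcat
Atp6v0d1: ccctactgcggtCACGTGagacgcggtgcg
Atp6v1a: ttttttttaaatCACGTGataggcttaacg

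In GRCm38.p6, the windows on the plus strand are chr8:13159088-13159117 for Lamp1, chr8:3500462-3500491 for Mcoln1, chr19:4855074-4855103 for Ctsf and chr11:119267811-119267840 for Gaa. Those on the minus strand are chr7:142387908-142387937 for Ctsd, chrX:134601182-134601211 for Gla, chr4:117887348-117887377 for Atp6v0b, chr8:105566050-105566079 for Atp6v0d1 and chr16:44139373-44139402 for Atp6v1a. The members held 22 boxes in all, of which 20 lay before the start site and 14 within 100 bases before it. Lamp1 had 4, and 6 members had more than 1. By role, a box was found in 4 of 7 cathepsins (Ctsa, Ctsd, Ctsf, Ctsl), 4 of 7 glycosidases (Gaa, Gla, Glb1, Naglu), 3 of 5 V0 subunits (Atp6v0b, Atp6v0d1, Atp6v0e), 2 of 5 membrane proteins (Lamp1, Mcoln1) and 1 of 4 V1 subunits (Atp6v1a). None of the 3 transcription factors, 3 lipid proteins or 2 pump accessory proteins with a sequence had one in this window. A match is a run of letters and not a shown binding site.

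The median ratios of members with and without a box lay near each other, but with FPKM a larger share of those with a box lay above 0. The 13 measured members with a box had a median ratio of 0.17 in conditioned media over control, 0.23 in resveratrol over conditioned media and 0.35 in resveratrol over control. For the 20 measured members without one the medians were 0.06, 0.20 and 0.32. In the same order, 10, 11 and 13 of the 13 with a box lay above 0, against 11, 12 and 12 of the 20 without. As TPM, the shares in conditioned media over control lay close together. Below 0 were only Atp6v0b (-0.02) with a box, and Neu1 (-0.01) and Atp6ap2 (-0.07) without one. For resveratrol over control, Tfe3, Scarb2 and Atp6v0a1, all without a box, turned above 0 as TPM. For resveratrol over control, the ratios ran from 0.13 to 1.17 with a box and from -0.73 to 0.90 without. Over all genes, the 1022 with a box had medians of -0.06, 0.05 and 0.02, and the 7523 without had -0.01, 0.03 and 0.00. Of these, 449, 569 and 523 with a box and 3688, 3991 and 3788 without one lay above 0. The difference by box was not tested.

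**Figure D2:**
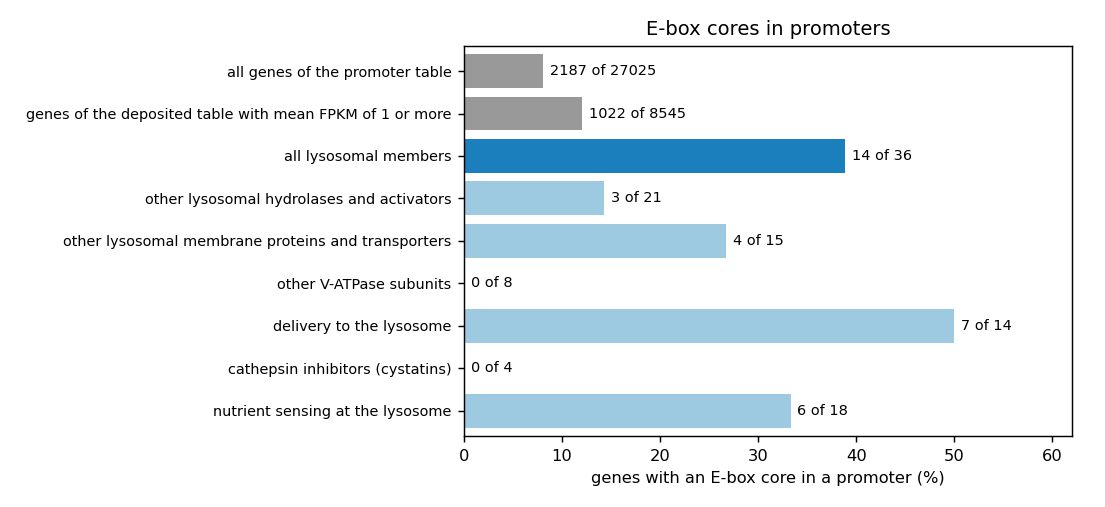
Percent of genes with a promoter (250 bases before to 50 after the start site) that holds CACGTG, for the lysosomal members, companion lists of lysosomal genes, and all genes. The bar of the members stands at 38.9%, that of all genes of the promoter table at 8.09% and that of the measured genes at 12%.

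The transcription factors differed from each other. Tfeb (chr17:47737037-47792416, mm10) stood at 5.25 FPKM in the control, 7.77 after conditioned media and 4.42 with resveratrol added. It was highest in conditioned media, with a log2 ratio of 0.49 over control and -0.70 for resveratrol over conditioned media, past the 1.5-fold line in FPKM but -0.54 as TPM. Tfe3, the family member that works beside TFEB, stood at 17.2, 17.1 and 15.1 FPKM. Its ratio for resveratrol over control was -0.18 and turned above 0 as TPM, as did its -0.01 for conditioned media over control. Mitf, best known from pigment cells and osteoclasts, stood at 3.22, 3.77 and 4.67 FPKM and was highest with resveratrol. Thus Tfeb was lowest in the library in which 12 of the 15 measured hydrolases were highest, and so was Tfe3 with FPKM but not as TPM. These are mRNA levels, and the location of the proteins was not measured.

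Among the 6 membrane proteins, the resveratrol library was highest for 4. Lamp2, a heavily glycosylated membrane protein needed for autophagosome clearance in muscle, stood at 166 FPKM in control cells, 181 after conditioned media and 251 with resveratrol added, a log2 ratio of 0.46 over conditioned media and 0.59 over control. Lamp1, its paralogue, stood at 348, 355 and 391 FPKM, a difference of 0.17 on the log2 scale between the lowest and the highest. Npc1, which exports cholesterol from the lysosome, stood at 12.9, 12.8 and 19.2 FPKM, with a log2 ratio of 0.55 for resveratrol over conditioned media and of -0.01 for conditioned media over control, which was 0.15 as TPM. The Npc1 locus shares its position with 3110002H16Rik. Mcoln1, a calcium channel of the lysosome, stood at 17.8, 16.8 and 21.2 FPKM, and its log2 ratio of -0.08 for conditioned media over control was 0.10 as TPM.

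The other 2 membrane proteins were not highest with resveratrol. Cd63, a tetraspanin of late endosomes and exosomes, had the highest level of all members, with 1151 FPKM in control cells, 1052 after conditioned media and 998 with resveratrol added. Its log2 ratio of -0.13 for conditioned media over control turned above 0 as TPM. A pseudogene of the same name, Cd63-ps, makes its value uncertain. Scarb2, the receptor that carries glucocerebrosidase to the lysosome, was highest in conditioned media, at 71.7 FPKM against 66.0 in control and 65.7 with resveratrol. Its log2 ratio of -0.01 for resveratrol over control was 0.18 as TPM, and it shares its position with Mir6415.

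With FPKM, the cathepsins were the only role with every measured member, 7 of 7, above control in both treated libraries. As TPM all 7 were again above control in both, but so were all 7 listed V1 subunits and all 4 lipid proteins. Of all genes, 70.2% and 64.7% lay above control as TPM. The median log2 ratio of the cathepsins with FPKM was 0.35 for conditioned media over control, 0.23 for resveratrol over conditioned media and 0.55 for resveratrol over control. The summed level of the 7 was 1059.7 FPKM in the control, 1277 after conditioned media and 1593 with resveratrol added. The authors' deposited table called 7, 5 and 6 of the 7 higher in the 3 comparisons, against 26.1%, 34.6% and 34.6% of all genes it tested, and none lower, against 30.2%, 29.7% and 34.3%. Ctsd (chr7:142375916-142387927), an aspartic protease, stood at 380.4, 449.8 and 606 FPKM in the 3 libraries in that order. Ctsb, a cysteine protease that also trims peptides from their ends, stood at 119, 153 and 208 FPKM, and its locus shares its position with Fdft1. Both were higher in conditioned media than in control and higher again with resveratrol, with log2 ratios over control of 0.67 for Ctsd and 0.80 for Ctsb.

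Ctsl and Ctsz followed the same order at other levels. Ctsl, the cysteine protease often named in atrophying muscle, stood at 409, 476 and 559 FPKM, or 0.22 over control in conditioned media and 0.45 with resveratrol. Ctsz, a carboxypeptidase, stood at 95.9, 126 and 141 FPKM, with most of its difference already in conditioned media (0.38) and 0.17 more with resveratrol. Ctsa, which also shields Neu1 and beta-galactosidase from breakdown, stood at 46.5, 59.5 and 62.9 FPKM, and the log2 ratio between the treated libraries was 0.08. Positions are shared with Nelfcd for Ctsz and with Neurl2 and Pltp for Ctsa.

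At low levels, Ctsf (chr19:4855129-4860912) had the largest ratio among the members over control with FPKM. It stood at 4.11 FPKM in the control, 5.36 after conditioned media and 10.5 with resveratrol added, a log2 ratio of 1.17 over control and 0.86 over conditioned media. With FPKM it was the 1 member at least 2-fold higher than control, past which 3.43% of all genes lay, and 97.98% of all genes had a lower ratio. As TPM its ratio over control was 1.04, and Npc2 lay above it at 1.08. Ctsh, an aminopeptidase, was the exception among the cathepsins: at 4.84, 7.21 and 5.51 FPKM it was highest in conditioned media, with a log2 ratio of -0.34 for resveratrol over conditioned media.

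**Figure D3:**
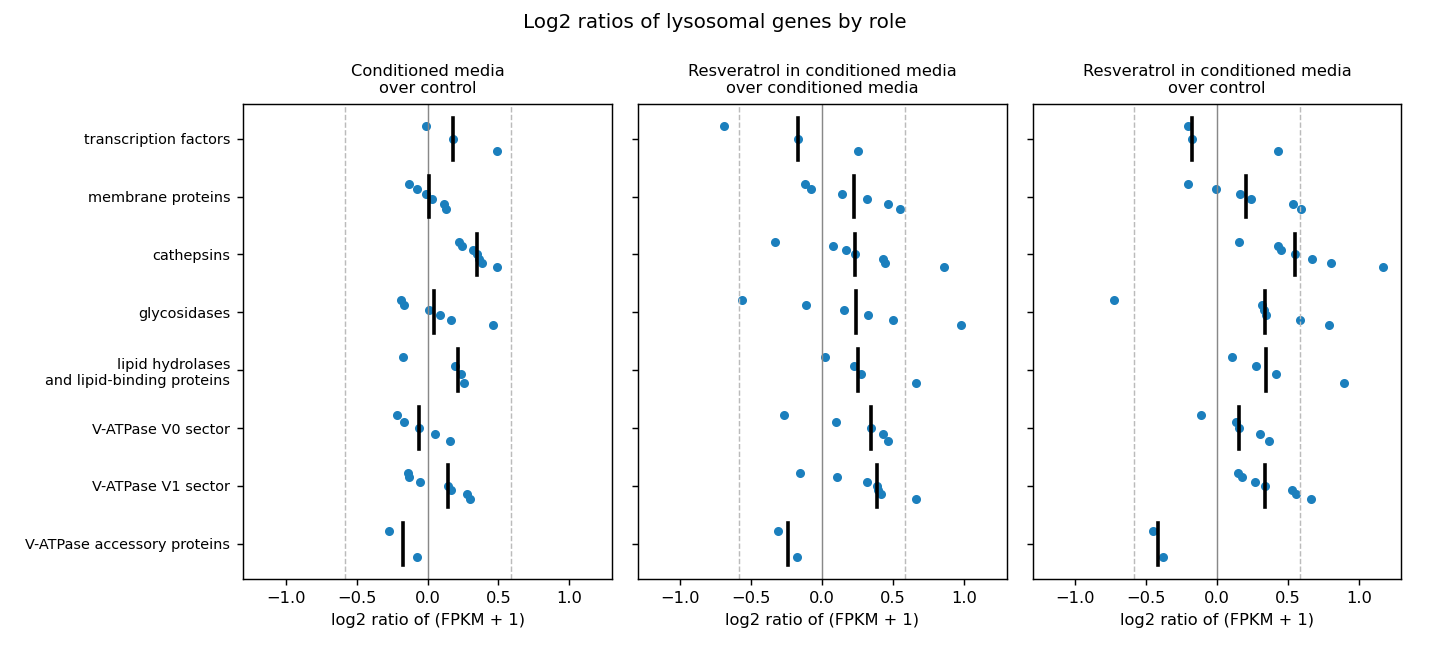
Log2 ratios of (FPKM + 1) for the 40 lysosomal genes, 1 point per gene, by role and for the 3 comparisons, with the median of each role as a bar. All 7 cathepsins lie above 0 for both treated libraries over control. The V0 and accessory medians in conditioned media over control and the transcription factor median in resveratrol over control lie below 0 with FPKM and above 0 with TPM.

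The glycosidases, which cut sugars from glycans, glycolipids and glycogen, were mixed. Their median log2 ratio was 0.05 in conditioned media over control, 0.24 in resveratrol over conditioned media and 0.34 in resveratrol over control. Neu1 (chr17:34931229-34937297), the sialidase, stood at 8.01 FPKM in the control, 6.92 after conditioned media and 14.6 with resveratrol added. It had the largest ratio of all members between the treated libraries, 0.98, above 98.4% of all genes. Naglu, which removes N-acetylglucosamine from heparan sulfate, stood at 13.96, 14.9 and 21.5 FPKM. For Neu1 and Naglu, the resveratrol library stood apart and the other libraries lay close to each other.

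Gusb (chr5:129989021-130002978), beta-glucuronidase, was the exception, lowest with resveratrol. It stood at 16.5 FPKM in the control, 14.6 after conditioned media and 9.54 with resveratrol added, a log2 ratio of -0.73 for resveratrol over control that was -0.47 as TPM. Its ratio of -0.17 for conditioned media over control turned to 0.02 as TPM. Gaa, the acid glucosidase that degrades glycogen and is deficient in Pompe disease, stood at 40.7, 45.8 and 51.0 FPKM. Hexa, a beta-hexosaminidase subunit, was alike in control and conditioned media, at 59.9 and 60.3 FPKM, and stood at 75.6 with resveratrol. Gla, the galactosidase deficient in Fabry disease, was higher in both treated libraries, at 5.52, 7.97 and 7.29 FPKM.

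The 4 lipid proteins all stood above control with resveratrol. Npc2 (chr12:84754559-84773112), which hands cholesterol to NPC1, stood at 142 FPKM in the control, 167 after conditioned media and 265 with resveratrol added, a log2 ratio of 0.66 over conditioned media and 0.90 over control. Psap, the precursor of the saposins that present sphingolipids to hydrolases, stood at 435, 498 and 581 FPKM. Both genes of the cholesterol pair, Npc1 and Npc2, thus had ratios over 0.50 between the treated libraries with FPKM, and 0.49 and 0.66 as TPM. Lipa, the acid lipase for cholesteryl esters and triglycerides, stood at 28.5, 34.2 and 34.6 FPKM, and its 0.02 between the treated libraries turned to -0.01 when ratios were centred on the median of all genes. Asah1, acid ceramidase, was lowest in conditioned media, at 97.3, 86.4 and 105 FPKM, though its -0.17 over control turned above 0 as TPM.

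The 14 listed genes of the proton pump were split by comparison. Their summed level was 1152 FPKM in the control, 1105 after conditioned media and 1337 with resveratrol added. In conditioned media over control, 6 of 14 had a ratio above 0 with a median of -0.06, which was 12 of 14 and 0.13 as TPM. With resveratrol, 10 of 14 lay above conditioned media with a median of 0.33, and 11 of 14 above control with a median of 0.22. The hydrolases, taken as cathepsins, glycosidases, Lipa and Asah1, had 12 of 15 above 0 in conditioned media over control, 12 in resveratrol over conditioned media and 14 in resveratrol over control. The difference between pump and hydrolases was not tested.

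In the V0 sector, 4 of 5 listed subunits were highest with resveratrol. Atp6v0c, the main ring subunit, stood at 218 FPKM in the control, 194 after conditioned media and 269 with resveratrol added, although pseudogenes named Atp6v0c-ps1 and Atp6v0c-ps2 make its values uncertain. Atp6v0b, another ring subunit, stood at 127, 109 and 139 FPKM, and Atp6v0e, a small membrane subunit, at 140.4, 135 and 182 FPKM. All 3 were lowest in conditioned media with FPKM, but for Atp6v0c and Atp6v0e the ratio over control was above 0 as TPM. Atp6v0d1, which joins the ring to the central stalk, stood at 48.2, 50.1 and 53.6 FPKM, a difference of 0.15 on the log2 scale between the lowest and the highest. Atp6v0a1, the subunit that holds the proton path beside the ring, was highest in conditioned media, at 18.7, 20.99 and 17.3 FPKM. Its log2 ratio of -0.11 for resveratrol over control turned above 0 as TPM, and a small RNA gene, Mir6928, lies within it.

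In the V1 sector, all 7 listed subunits stood above control with resveratrol and 6 of 7 above conditioned media. Atp6v1g1, a V1 subunit outside the members, was highest in the control with FPKM, at 289, 243 and 255. Its log2 ratio for resveratrol over control was -0.18 with FPKM. Atp6v1e1 (chr6:120795243-120822748), of the outer stalk, stood at 96.5 FPKM in the control, 88.0 after conditioned media and 139.9 with resveratrol added, a log2 ratio of 0.66 between the treated libraries. A small RNA gene, Gm25193, lies within it. Atp6v1f, of the central stalk, stood at 56.5, 68.6 and 90.1 FPKM, which put it 0.66 over control. Atp6v1b2, the B subunit next to the ATP site, stood at 34.1, 37.9 and 50.7 FPKM and shares its position with Slc18a1. Atp6v1f and Atp6v1b2, like Atp6v1e1, were highest in the resveratrol library, with log2 ratios over conditioned media of 0.39 and 0.41.

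The remaining V1 subunits among the members were all above control with resveratrol, with log2 ratios of 0.14 to 0.34. Atp6v1a, which holds the ATP site, was the exception among the listed V1 subunits with its highest level in conditioned media, at 42.1, 52.1 and 46.7 FPKM. Atp6v1d, of the central stalk, stood at 64.5, 62.1 and 81.8 FPKM and shares its position with Mpp5. Atp6v1c1, whose release goes with pump disassembly, stood at 47.3, 42.8 and 53.6 FPKM, and Atp6v1h, a regulatory subunit, at 41.8, 47.0 and 50.5 FPKM. For Atp6v1d, Atp6v1c1 and Atp6v1e1, the ratio of conditioned media over control was below 0 with FPKM and above 0 as TPM.

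The 2 accessory proteins were lowest with resveratrol, where most of the listed V0 and V1 subunits were highest. Atp6v0a1 was also lowest there with FPKM, as was Tcirg1, a pump subunit outside the members, with a log2 ratio of -0.73 over control. Atp6ap1 (chrX:74297097-74304721), which helps V0 assemble, stood at 139 FPKM in the control, 132 after conditioned media and 106 with resveratrol added. Atp6ap2 (chrX:12587714-12619955), also known as the prorenin receptor, stood at 78.3, 64.7 and 57.0 FPKM. Their log2 ratios for resveratrol over control were -0.38 and -0.45, and the median of the pair was -0.42, or -0.22 as TPM. For conditioned media over control the ratio of Atp6ap1 was -0.07 and turned above 0 as TPM, while that of Atp6ap2 was -0.27. The authors' deposited table called both lower in all 3 comparisons, as it did 30.2%, 29.7% and 34.3% of all genes tested.

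**Figure D4:**
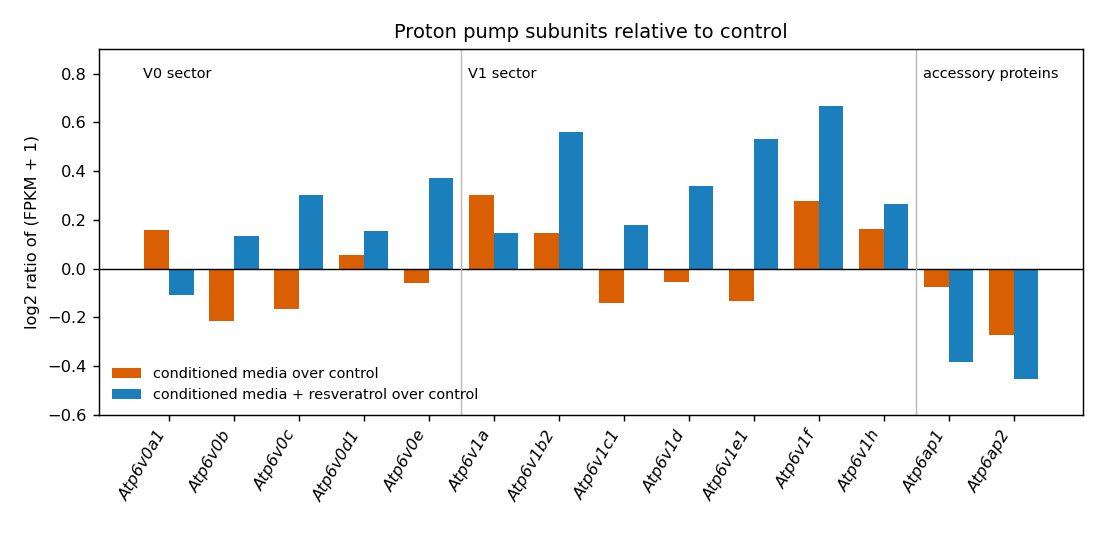
Log2 ratio of (FPKM + 1) over control for the 14 proton pump genes by sector, with bars from 0 for conditioned media (orange) and for conditioned media with resveratrol (blue), 1 library each. The blue bars of all 7 listed V1 subunits lie above 0 and those of Atp6ap1 and Atp6ap2 below it. The orange bars of Atp6v0c, Atp6v0e, Atp6v1c1, Atp6v1d, Atp6v1e1 and Atp6ap1 and the blue bar of Atp6v0a1 lie below 0 with FPKM and above 0 as TPM.

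Lysosomal genes outside the 43 were read from lists chosen by function, also with earlier results of these data known. Of the other hydrolases and their activators, 27 of 30 were measured, and 19 lay above 0 in conditioned media over control (25 as TPM), 19 in resveratrol over conditioned media and 22 in resveratrol over control, with medians of 0.08, 0.14 and 0.26. Dnase2a, the lysosomal DNase, stood at 11.4, 18.5 and 24.1 FPKM. Pla2g15, a lysosomal phospholipase, was lowest with resveratrol, at 12.2, 16.4 and 8.39 FPKM.

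Of the other membrane proteins and transporters, 17 of 18 were measured, with 7 (13 as TPM), 14 and 12 above 0 and medians of -0.05 (0.10 as TPM), 0.18 and 0.17. Their share above 0 in conditioned media over control was 41.2% (76.5% as TPM), against 48.6% (70.2% as TPM) of all genes. Ctns, the cystine exporter, stood at 10.6, 8.79 and 15.5 FPKM, and Cd164, a sialomucin, at 252, 264 and 409 FPKM. Of the other pump subunits, 6 of 11 were measured, and none lay above 0 in conditioned media over control, 5 in resveratrol over conditioned media and 2 in resveratrol over control (4 as TPM). Tcirg1, the a3 subunit known from osteoclasts, stood at 44.3, 36.3 and 26.4 FPKM, and Atp6v0a2, of Golgi and endosomes, at 24.2, 17.9 and 19.0 FPKM. Tcirg1, like Atp6v0a1 with FPKM, was lowest with resveratrol, the library in which the ring subunit Atp6v0c was highest.

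Of the genes for delivery to the lysosome, 17 of 18 were measured, with 8 (12 as TPM), 13 and 13 above 0 and medians of -0.08 (0.09 as TPM), 0.21 and 0.16. Their share above 0 in conditioned media over control was 47.1% (70.6% as TPM), near the 48.6% (70.2% as TPM) of all genes. Rab7, the GTPase of late endosomes, stood at 153, 111 and 113 FPKM, lower in both treated libraries. Vps39, of the HOPS tether that RAB7 recruits, stood at 9.43, 13.3 and 18.1 FPKM. Of the nutrient-sensing genes, 17 of 19 were measured, with 7, 13 and 9 above 0 (10 and 14 as TPM over control) and medians of -0.06 (0.06 as TPM), 0.21 and 0.15. Rragd, a Rag GTPase and known target of the TFEB family, stood at 1.49, 2.82 and 1.15 FPKM, highest in conditioned media as Tfeb was. Fnip2, a folliculin partner, stood at 3.07, 2.94 and 6.23 FPKM. Promoters with CACGTG made up 7 of 14 of the delivery list, 6 of 18 of the nutrient-sensing list and 4 of 15 of the other membrane proteins. They made up 3 of 21 (14.3%) of the other hydrolases, 0 of 8 of the other pump subunits and 0 of 4 of the cystatins. The share was 8.09% of all genes of the promoter table and 12% of the measured genes matched to it.

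The inhibitors of cathepsins and a textbook target of the TFEB family were read beside the proteases. Cst3, the secreted cystatin C, stood at 399.7 FPKM in the control, 413 after conditioned media and 520.4 with resveratrol added, and Cstb, the cytosolic cystatin B, at 153, 171 and 179 FPKM. Sqstm1, the autophagy receptor p62, stood at 207, 276 and 400.3 FPKM, a log2 ratio of 0.41 for conditioned media over control and 0.54 for resveratrol over conditioned media. Cst3 and Sqstm1 thus had the same order of libraries as Ctsb and Ctsd. Gpnmb, a macrophage and melanocyte target of the family, was under 1 FPKM in each library.

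Markers of cell types were read from the same libraries. Of 8 myotube markers, 7 had a row, with summed levels of 3000.5 FPKM in the control, 2851 after conditioned media and 4243 with resveratrol added. Myog, the differentiation factor, stood at 384, 313 and 596 FPKM and Acta1, skeletal actin, at 1568, 1496 and 2272.5 FPKM, so that the labelled line carried myotube RNA in each library. Their median log2 ratio was -0.07 for conditioned media over control, which was 0.13 as TPM, and 6 of the 7 stood above both other libraries with resveratrol. The exception was Ckm, muscle creatine kinase, lowest with resveratrol at 60.8, 56.3 and 43.2 FPKM. The part of myotube content in the lysosomal values was not tested. Fibroblast markers summed to 995.6, 1161 and 618 FPKM, mostly from the collagen gene Col1a1 at 899, 1056 and 527 FPKM. Other markers of that list had other orders: Dcn, the proteoglycan decorin, stood at 27.8, 48.9 and 43.6 FPKM, Pdgfra at 4.98, 9.86 and 6.98, and Pdgfrb at 63.4, 45.5 and 39.6. The part of such cells in the lysosomal values was not tested either. Of 10 leukocyte markers, 9 were under 1 FPKM in every library and Ptprc, Adgre1 and Tyrobp were listed at 0 in all 3. Their sums of 6.62, 7.76 and 5.14 FPKM came mostly from Cd14, at 5.52, 6.53 and 4.14 FPKM. Of 6 osteoclast markers, 5 were under 1 FPKM and Calcr and Dcstamp were listed at 0. Their sums of 6.55, 7.61 and 10.2 FPKM were nearly all Nfatc1, at 6.33, 7.42 and 10.1 FPKM.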

How the data were processed

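RNA from 3 C2C12 libraries, 1 per group, was sequenced after Illumina library preparation, per the labels' protocols. The submitters' processing notes name the mm10 build, TopHat2 2.1.0 with Bowtie, Cuffdiff 2.2.1.3 after Cufflinks 2.2.1.0, and, for read checks and trimming, FastQC 0.69 and Trim Galore 0.4.3.1. The sources used here do not say how libraries were scaled, whether strand was used or which annotation served. The deposited table holds, per the file headers, FPKM per locus and library. It also holds the authors' log2 fold change, test statistic (a score), p-value and q-value, with a yes or no call. The authors' log2 values matched the ratios of the deposited FPKM. No read counts were used, since FPKM carries none.

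Ratios were log2((FPKM + 1)/(FPKM + 1)) for genes with a single symbol and a mean FPKM of 1 or more, taking the locus with the highest mean per symbol. Sizes of 1.5-fold and 2-fold served as descriptive limits, with no test. Starts in the table count from 0 and were made 1-based. Small RNA genes, pseudogenes and strands came from GENCODE M21 and promoters from RefSeq (GRCm38.p6). Members and lists were chosen with earlier results of these data known. All members could be named. From each companion list, the 4 genes with the largest ratio in conditioned media over control and the 4 in resveratrol over conditioned media could be named, besides any marker, Sqstm1 and Gpnmb. Atp6v1g1 was named in addition, as a V1 subunit outside the members. Alternatives were pseudocounts of 0.1 and 5, no filter or a mean of 5 FPKM, TPM, centring, summed loci, members at shared positions left out, and longer motifs. Calculations used Python 3.11.15, pandas 2.3.3, numpy 2.4.6 and matplotlib 3.10.9 and were tested on simulated data.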

Additional observations from a re-analysis of the deposited data

How the results depend on the processing

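No library could be left out, since each group has 1. No paired analysis was possible because each group has 1 sample and no test was made. A median was taken as moved past 0.1 on the log2 scale and a count past 1.5 times. The median ratio of the 40 members kept its sign in each setting tried, at 0.07 to 0.27 for conditioned media over control, 0.21 to 0.25 for resveratrol over conditioned media and 0.27 to 0.46 for resveratrol over control. The highest values for the comparisons with control, 0.27 and 0.46, were those as TPM. As TPM, members at least 1.5-fold higher with resveratrol than control numbered 15 in place of 8, and with a pseudocount of 5 they numbered 6. Those higher with resveratrol than conditioned media numbered 4, which became 3 with a pseudocount of 5. Members at least 1.5-fold lower with resveratrol than conditioned media numbered 1, which became 2 with a pseudocount of 0.1 or centring and 0 with a pseudocount of 5 or TPM. Those lower than control numbered 1, which became 0 with a pseudocount of 5 or TPM. As TPM, role medians for conditioned media over control were 0.18 for membrane proteins, 0.50 for cathepsins, 0.22 for glycosidases, 0.40 for lipid proteins, 0.13 for V0, 0.32 for V1 and 0.022 for accessory proteins. For resveratrol over control they were 0.0037 for transcription factors, 0.37, 0.73, 0.50, 0.52, 0.33 and 0.51 for the next 6 in that order, and -0.22 for accessory proteins. The other 9 role medians as TPM, and all 24 with pseudocounts of 0.1 and 5 and with centring, moved by less than 0.1. The other settings were not run by role. The promoter count of 14 with CACGTG was 7 with TCACGTGA and 0 with the 10-base palindrome. Summing loci left the member values as they were, since each has 1 locus. Depth is unknown, so genes at low FPKM, such as Tfeb, Mitf and Ctsf, have no stated precision. The cause of the shift under TPM was not tested.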
